A study of Homo sapiens with 16 samples.

Results

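The aryl hydrocarbon receptor loop was taken as 6 genes of the 18227 measured: AHR, ARNT, AHRR, TIPARP, CYP1A1 and CYP1B1. The rule used their symbols only, and all 6 had a row in each of the 4 tables that the authors deposited. The limma tests below used no filter on low values and covered all 6. The authors' table of A549 oncospheres gives no adjusted p for AHRR and CYP1A1, so tests of differences that draw on it cover 4 of the 6. CYP1A1 stayed near the bottom of the range and was listed at 0 TPM in 2 of 16 libraries.

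The libraries came from A549 and H2023, established human cell lines of non-small cell lung cancer, sequenced from stranded mRNA libraries. The groups cross 2 lines, 2 genotypes and 2 culture types, and each of the 8 groups held 2 libraries. Genotype was wild type or ZC3H12A knockout, where ZC3H12A encodes Regnase-1, an RNase that degrades selected mRNAs. Normal culture lasted 3 days and oncosphere culture, which enriches for stem-like cells, lasted 7 days, so culture type and time cannot be told apart. The titles name 1 knockout clone per line, so what the edit does and what else sets that clone apart cannot be told apart either. Nothing in the labels says that the 2 libraries of a group came from separate cultures, so a p-value measures the spread between these libraries, which may be technical. In the text, "knockout" means a library labelled so.

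The aryl hydrocarbon receptor is a transcription factor of the bHLH-PAS family that waits in the cytosol with HSP90 and other chaperones. On binding a ligand, such as dioxin, a polycyclic hydrocarbon of tobacco smoke or a tryptophan metabolite, it enters the nucleus, pairs with ARNT and binds DNA at the xenobiotic response element, whose core is GCGTG. It switches on CYP1A1 and CYP1B1, which oxidize many of its ligands, and also AHRR and TIPARP, which damp it: AHRR competes for ARNT and DNA, and TIPARP adds ADP-ribose to the receptor. The 4 targets therefore close a feedback loop around the receptor pair, and in airway epithelium the loop is known for its response to smoke.

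Promoter windows of the targets are shown because the members are tied by this element. A window runs from 250 bases before a transcription start to 50 bases from it, in RefSeq on GRCh38.p14, and 5 of the 6 members matched 8 windows; CYP1B1 had no entry. Capitals mark GCGTG, or CACGC where it lies on the other strand, and each sequence reads 5′ to 3′ along its gene. The windows are CYP1A1 at chr15:74725479-74725778 on the - strand, the upstream AHRR window at chr5:321464-321763 on the + strand, and the upstream TIPARP window at chr3:156674340-156674639 on the + strand.
CYP1A1: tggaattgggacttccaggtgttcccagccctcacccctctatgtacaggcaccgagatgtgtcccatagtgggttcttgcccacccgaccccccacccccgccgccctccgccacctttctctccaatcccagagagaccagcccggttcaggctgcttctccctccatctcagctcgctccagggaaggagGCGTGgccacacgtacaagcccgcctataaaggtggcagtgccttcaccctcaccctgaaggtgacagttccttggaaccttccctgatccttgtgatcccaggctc
AHRR: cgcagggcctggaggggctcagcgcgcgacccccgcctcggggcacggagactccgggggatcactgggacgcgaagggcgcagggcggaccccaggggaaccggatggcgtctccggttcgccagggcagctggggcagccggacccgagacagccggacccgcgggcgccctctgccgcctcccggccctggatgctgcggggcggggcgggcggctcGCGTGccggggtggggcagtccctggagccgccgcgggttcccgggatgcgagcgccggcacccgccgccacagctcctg
TIPARP: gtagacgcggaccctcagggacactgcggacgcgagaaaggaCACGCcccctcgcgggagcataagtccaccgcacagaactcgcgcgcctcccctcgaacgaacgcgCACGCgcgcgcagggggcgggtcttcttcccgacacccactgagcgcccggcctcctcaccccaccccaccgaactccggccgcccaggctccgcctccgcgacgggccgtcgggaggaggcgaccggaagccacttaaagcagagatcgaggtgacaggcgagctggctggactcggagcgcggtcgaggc
The CYP1A1 window held 1 match, at positions -57 to -53 from the start base, and the AHRR window held 1, at -30 to -26. The AHRR match was the only one among the members to extend to the longer form TNGCGTG. The upstream TIPARP window had 2 matches on the opposite strand, at -208 to -204 and -142 to -138. Of the windows not printed, the downstream TIPARP windows held no match. The downstream AHRR window held 2, at -247 to -243 and -42 to -38. The AHR window also held 1 GCGTG, at 37 to 41, and ARNT held none. Searched on both strands, GCGTG was found in 36.5% of all 35116 windows and TNGCGTG in 5.5%. ACGTG, the core of the hypoxia response element, differs from GCGTG in its first base, so no match is both. It was found in 21.4% of windows and among the members in those of CYP1A1 and AHR, where the 2 AHR matches are both strands of a single palindrome. The well-known enhancer elements of CYP1A1 lie further upstream than these windows reach. A match is a run of letters and was not tested as a binding site.

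TPM keeps no record of depth. How deeply each library was sequenced therefore cannot be read from these values, and a 0 carries no upper limit. The authors' mean normalized counts sum to 20453740 to 22760512 per line and culture, as an average over 4 libraries and not per library. The number of libraries limits the precision. ZC3H12A mRNA was lower in knockout than in wild type in A549 normal culture, at 16.9 to 19.9 against 30.7 to 34.9 TPM, and higher in the other 3 comparisons, at 41.5 to 94.6 TPM against 26.4 to 49.2 TPM. All 5 epithelial markers were measured, and their summed level in A549 normal culture was 7417 to 7626 TPM in wild type and 1450 to 2523 TPM in knockout, with 4 of 5 called lower by limma. Of the markers of other cell types, CD68 was the only leukocyte gene measured, at 28.7 to 178.9 TPM, while fibroblast and endothelial sums stayed at or below 8.63 and 2.76 TPM. The mitochondrial share of TPM was 10.3% to 18.7% in normal and 19.5% to 25.6% in oncosphere libraries.

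Levels, which TPM scales by transcript length, differed widely between the members. CYP1B1 was the most abundant member, at 40.4 to 125 TPM with a median of 74.7 over the 16 libraries, followed by AHR at 12.6 to 139.9 TPM with a median of 55.9. ARNT lay between 13.5 and 29.5 TPM and TIPARP between 6.26 and 16.6 TPM. AHRR ranged from 0.06 to 5.44 TPM and reached 1 TPM in 8 of 16 libraries, and CYP1A1 peaked at 1.54 TPM and reached 1 TPM in 3. Thus of the enzymes that mark receptor activity, CYP1B1 ranked above 90.2% of genes by mean TPM over the 16 libraries and CYP1A1 above 10.3%.

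**Figure D1:**
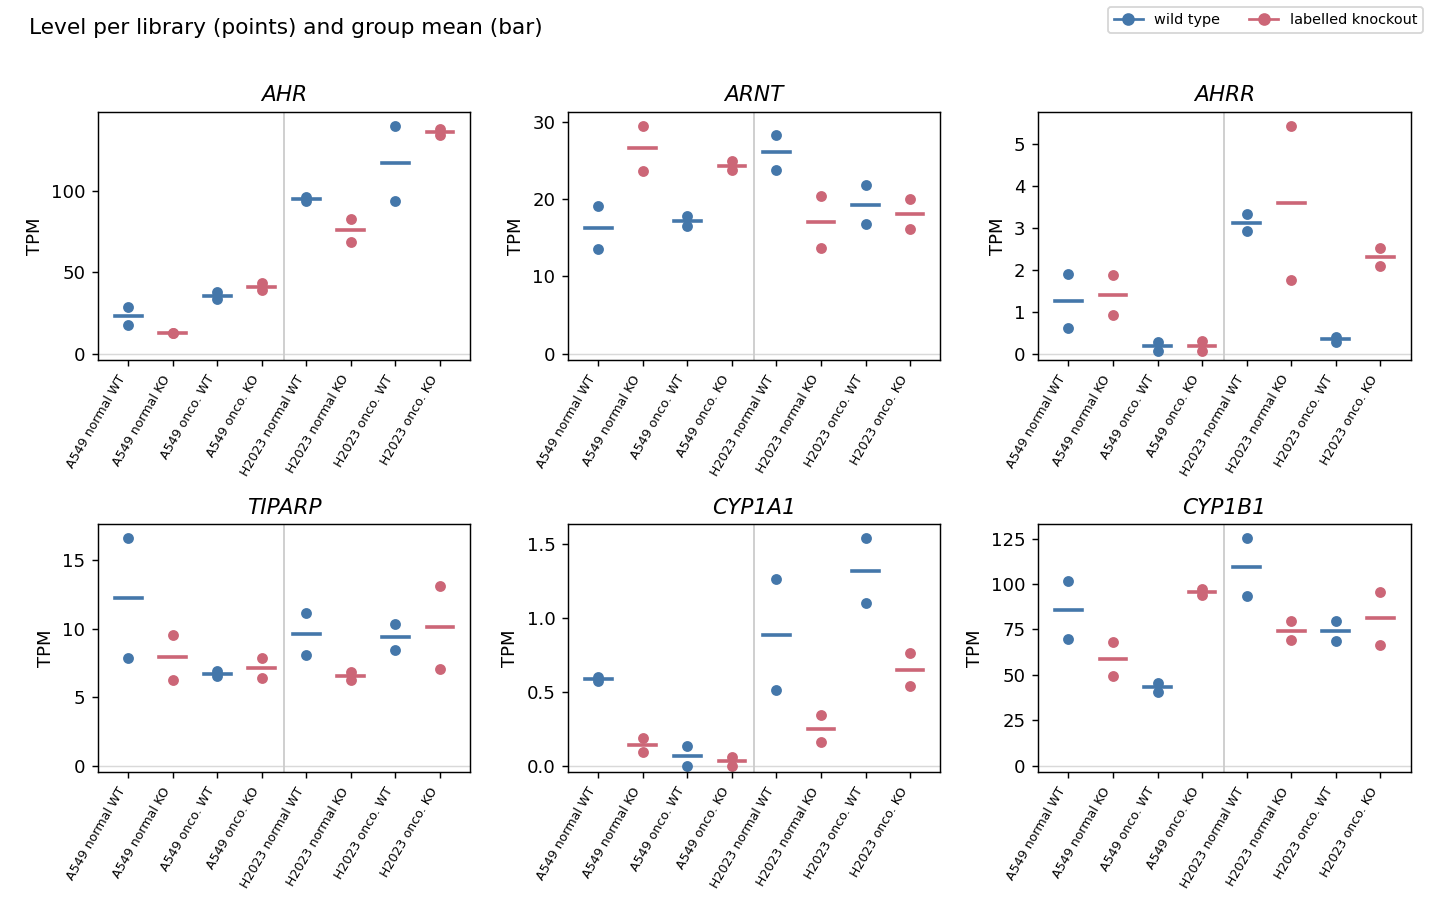
TPM of each member (y axis, linear, 1 panel per gene) in the 8 groups (x axis). Points are libraries, 2 per group, and bars are group means; all 8 H2023 libraries lie above all 8 A549 libraries for AHR, and CYP1B1 in A549 is lowest in wild-type oncospheres at 40.4 to 45.8 TPM.

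The first question was whether the loop differed between knockout and wild type. Fold changes are on the log2(TPM + 1) scale, which understates changes of low genes, and a gene is called at a limma adjusted p under 0.05 over all 18227 genes. In A549 normal culture limma called 0 of 6 members, against 10.8% of all genes, and 3 members passed 0.05 before adjustment, against 31.7%. In A549 oncospheres it called 1, CYP1B1, higher, against 13.2% (6.04% higher). In H2023 limma called 0 members in either culture, where it called 0.0% of all genes, and 2 members in each culture passed 0.05 before adjustment, against 18.2% in normal culture and 15.5% in oncospheres. The authors' deposited tables list 2 members with an adjusted p under 0.05 in A549 normal culture, ARNT higher and AHR lower (background 22.1%, with 11.2% higher and 10.9% lower). They list 2 higher in A549 oncospheres, ARNT and CYP1B1 (20.7%, with 9.29% higher), 3 lower in H2023 normal culture, AHR, ARNT and CYP1B1 (10.8%, with 6.97% lower), and 0 in H2023 oncospheres (5.07%).

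Seen by library, 5 of the 6 members (AHR, ARNT, TIPARP, CYP1A1 and CYP1B1) had both knockout values below both wild-type values in H2023 normal culture, where 24.5% of all genes did so, and none was higher without overlap, against 26.1%. In A549 normal culture 3 members (AHR, CYP1A1 and CYP1B1) were lower without overlap, against 34.6% of genes, and ARNT was higher without overlap, against 27.2%. In A549 oncospheres AHR, ARNT and CYP1B1 were higher without overlap (32.7% of genes) and none was lower (27.8%). In H2023 oncospheres AHRR was higher (28.6%) and CYP1A1 lower (18.9%). The median log2 fold change of the 6 members was -0.49 and -0.51 in normal culture of A549 and H2023, against -0.03 and 0.01 over all genes, and 0.14 and 0.08 in oncospheres, against 0.03 and 0.06.

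**Figure D2:**
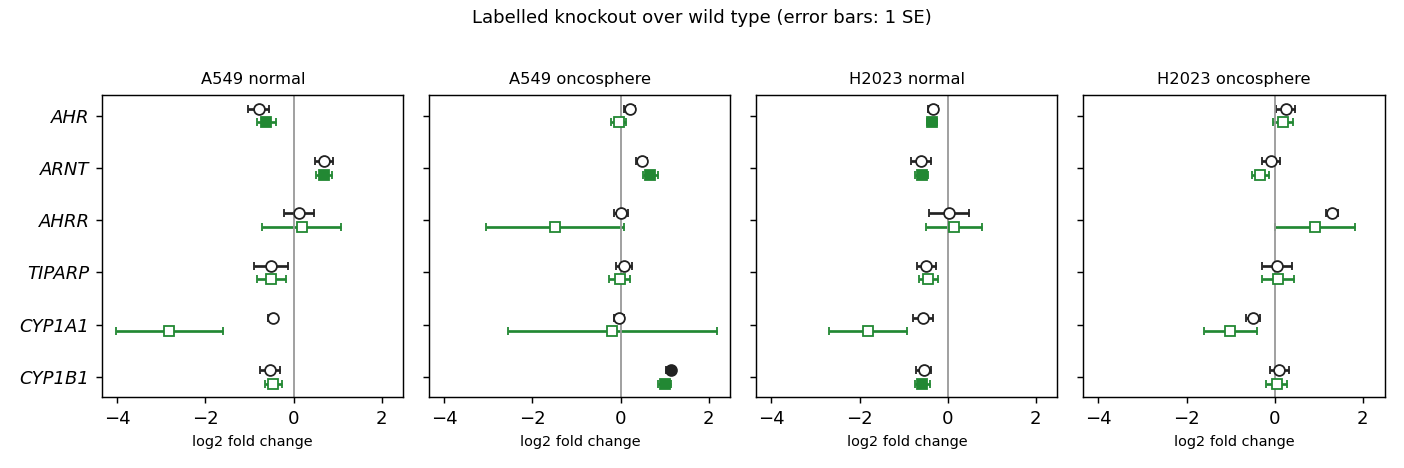
Knockout against wild type as log2 fold change (x axis, error bars 1 SE) for each member (y axis) in the 4 comparisons. Black circles are limma on log2(TPM + 1) and green squares the authors' deposited tables, filled where the adjusted p is under 0.05; CYP1B1 in A549 oncospheres, at 1.14 in limma, is the only filled circle.

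CYP1B1 (ENSG00000138061; GRCh38 chromosome 2, 38066973 to 38109902, - strand) encodes a cytochrome P450 that oxidizes polycyclic hydrocarbons and estradiol. In A549 oncospheres it stood at 40.4 and 45.8 TPM in wild type and at 94.2 and 97.1 TPM in knockout. The knockout libraries were thus 2.22-fold higher in mean TPM and nearly equal to each other. CYP1B1 rose by 1.14 on the log2 scale (SE 0.11, limma adjusted p = 0.00566), and by 1.00 in the authors' deposited table (adjusted p = 8.84e-10). Leaving out any 1 of the 4 libraries kept the fold change at 1.05 to 1.22 but ended the limma call, with adjusted p of 0.0847 without knockout replicate 1, 0.0998 without knockout replicate 2, 0.0768 without wild-type replicate 1 and 0.0575 without wild-type replicate 2. In the same comparison CD68, a macrophage gene, went from 117 and 179 TPM in wild type to 29.7 and 44.5 TPM in knockout and was called lower by limma (-1.97). The other 3 leukocyte markers were not measured. Of the 5 epithelial markers 2 were called lower, with sums of 5230 to 6570 and 4995 to 7195 TPM. The part of either marker list in the CYP1B1 result was not tested.

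In normal culture CYP1B1 lay on the other side of wild type. A549 gave 101 and 70.0 TPM in wild type and 49.4 and 68.0 TPM in knockout, with no overlap although the nearest libraries were close (log2 fold change -0.53, SE 0.23, limma adjusted p = 0.189). H2023 normal culture gave 93.6 and 125 TPM in wild type and 69.2 and 79.4 TPM in knockout (-0.54, limma adjusted p = 0.244), and the authors' deposited table lists -0.57 with an adjusted p of 0.00857. H2023 oncospheres overlapped, at 79.4 and 68.8 TPM in wild type and 95.7 and 66.5 TPM in knockout. An antisense gene, CYP1B1-AS1, shares the locus on the opposite strand at 1.31 to 4.82 TPM.

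The difference of the CYP1B1 effect between cultures was itself tested. In A549 the effect in oncospheres exceeded that in normal culture by 1.46 on the log2 scale (SE 0.24, adjusted p = 3.01e-07, from the fold changes and standard errors of the authors' deposited tables), a comparison in which 9.8% of genes passed. The limma interaction over the 8 A549 libraries was 1.67 (adjusted p = 0.0214). Of the 4 members tested in A549 (AHR, ARNT, TIPARP and CYP1B1) CYP1B1 alone passed, and in H2023 it gave 0.62 (adjusted p = 0.895), where 0 of 6 members and 0.506% of genes passed. Between lines, the oncosphere effect of CYP1B1 was smaller in H2023 than in A549 by 0.95 (adjusted p = 0.00726; limma interaction -1.03, adjusted p = 0.0445), in a comparison where 15.0% of genes passed and the same 4 members were tested.

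ARNT (ENSG00000143437; chromosome 1, 150809705 to 150876768, - strand) encodes the partner of the receptor, which it shares with HIF1A. In A549 normal culture it was at 13.5 and 19.1 TPM in wild type and 23.6 and 29.5 TPM in knockout. In A549 oncospheres wild type gave 16.5 and 17.8 TPM and knockout 23.8 and 24.9 TPM. All 4 A549 knockout libraries therefore exceeded all 4 A549 wild-type libraries, with limma fold changes of 0.68 (SE 0.21, adjusted p = 0.0939) and 0.48 (SE 0.12, adjusted p = 0.0655). The authors' deposited tables list 0.69 and 0.67, with adjusted p-values of 0.00115 and 5.36e-04. In normal culture the limma call depended on the setting: it was made when genes under a mean of 1 TPM were left out (adjusted p = 0.0494) and in the fit over 16 libraries (0.0463).

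In H2023 ARNT did not share this pattern. Normal culture gave 23.8 and 28.3 TPM in wild type and 20.45 and 13.6 TPM in knockout, so the knockout libraries were the lower ones, with a log2 fold change of -0.60 (limma adjusted p = 0.290) and -0.59 in the authors' deposited table (adjusted p = 0.00244). Oncospheres overlapped, at 16.8 and 21.8 against 20.0 and 16.1 TPM. The effect in H2023 minus that in A549 was -1.28 in normal culture (SE 0.24, adjusted p = 1.63e-06), where 19.2% of genes passed and ARNT was the only member to do so, and the limma interaction was -1.29 (adjusted p = 0.0424). In oncospheres it was -1.0 (adjusted p = 0.00147), but the limma interaction, at -0.57, had an adjusted p of 0.181.

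AHR (ENSG00000106546; chromosome 7, 16916359 to 17346152, + strand) is the receptor itself. In A549 normal culture wild type gave 17.8 and 28.7 TPM and knockout 12.6 and 12.7 TPM. The knockout libraries were the lowest of all 16, at 0.543 times the wild-type mean, and the wild-type pair was widely spread. The log2 fold change was -0.79 (SE 0.24, limma adjusted p = 0.0923), and -0.62 in the authors' deposited table (adjusted p = 0.0207). With genes under a mean of 1 TPM left out limma called it (adjusted p = 0.0449), as did the fit over 16 libraries (0.0206). The fall in summed epithelial markers moved with this comparison, and its part in the values of AHR, CYP1A1 and CYP1B1 there was not tested. As in any bulk sample, fewer cells of a type and less RNA per cell cannot be told apart.

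In H2023 normal culture AHR was at 96.4 and 94.0 TPM in wild type and 82.8 and 68.5 TPM in knockout (log2 fold change -0.33, limma adjusted p = 0.258; authors' deposited table -0.36, adjusted p = 0.0198). Summed epithelial markers there were 5887 to 7299 TPM in wild type and 9816 to 10677 TPM in knockout, none called by limma, and their part in the lower values of AHR, ARNT and CYP1B1 was not tested. Oncospheres showed no such order. A549 gave 33.2 and 37.5 TPM in wild-type and 43.2 and 38.8 TPM in knockout libraries, where the limma value of 0.21 and the -0.05 of the authors' deposited table differ in sign. H2023 gave 139.9 and 93.7 against 134 and 138 TPM, which overlap. The knockout effect on AHR did not pass the test of a difference between cultures in A549 (0.58, adjusted p = 0.191; limma interaction 1.00, adjusted p = 0.0752) or in H2023 (0.55, adjusted p = 0.860).

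Of the repressors, AHRR was low and TIPARP lay near the middle of all genes by mean TPM, above 49.0% of them. AHRR (ENSG00000063438; chromosome 5, 304176 to 438291, + strand) was at 0.28 and 0.40 TPM in wild-type and 2.51 and 2.10 TPM in knockout H2023 oncospheres. Both knockout libraries stood above, 6.78-fold in mean TPM, with a log2 fold change of 1.3 (SE 0.13, limma adjusted p = 0.208). The authors' deposited table gives only 0.91 (SE 0.91, adjusted p = 0.757) on a mean normalized count of 14.3, so counts and TPM differ for this gene. AHRR overlaps PDCD6, a gene on the same strand at 115 to 191 TPM, and reads of the shared stretch could be split between them. The authors' tables give no adjusted p for AHRR in A549 oncospheres, so its line difference there was taken from limma alone (interaction 1.29, adjusted p = 0.0167).

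Elsewhere AHRR replicates disagreed. A549 normal culture gave 1.89 and 0.61 TPM in wild type and 0.92 and 1.87 TPM in knockout, and H2023 normal culture 3.34 and 2.92 against 5.44 and 1.76 TPM. In both cultures the genotypes overlapped, and the sign of the limma value (0.12 and 0.03) turned with 1 library: it was -0.30 without wild-type replicate 2 in A549 and -0.58 without knockout replicate 1 in H2023. A549 oncospheres held 0.28 and 0.07 against 0.06 and 0.31 TPM.

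CYP1A1 (ENSG00000140465; chromosome 15, 74719542 to 74725610, - strand), the classical reporter of receptor activity, had a lower mean in knockout in all 4 comparisons. The values were 0.60 and 0.57 against 0.09 and 0.19 TPM in A549 normal culture, and 0.51 and 1.26 against 0.16 and 0.34 TPM in H2023 normal culture. In H2023 oncospheres they were 1.10 and 1.54 against 0.54 and 0.76 TPM. These 3 comparisons had no overlap, whereas A549 oncospheres lay at or under 0.13 TPM throughout with 1 library of each genotype listed at 0. No limma fold change was called (-0.48, -0.57, -0.49 and -0.05, adjusted p = 0.0567, 0.307, 0.294 and 0.827). The authors' deposited tables list -2.82, -1.80 and -1.0 for the 3 without overlap, with adjusted p-values of 0.0807, 0.206 and 0.445 on mean normalized counts of 9.13, 19.1 and 39.6. In A549 oncospheres the mean normalized count was 1.53.

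TIPARP (ENSG00000163659; chromosome 3, 156673235 to 156706770, + strand) encodes a mono-ADP-ribosyltransferase. H2023 normal culture gave 8.09 and 11.2 TPM in wild type and 6.81 and 6.26 TPM in knockout, the only comparison without overlap (log2 fold change -0.48, limma adjusted p = 0.324). A549 normal culture gave 16.6 and 7.83 against 9.52 and 6.27 TPM, and the wild-type replicate at 16.6 TPM was the highest of the 16 libraries. In oncospheres A549 lay at 6.88 and 6.54 against 7.88 and 6.42 TPM, and H2023 at 8.43 and 10.3 against 7.09 and 13.1 TPM. When the groups were ordered by mean TPM, every TIPARP group overlapped its neighbour. TIPARP-AS1, on the opposite strand, was at 2.25 to 7.32 TPM.

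The second question was how the loop differed between oncosphere and normal culture, tested with limma over the 8 libraries of a line. In A549 wild type 4 of 6 members were called, AHR higher and AHRR, CYP1A1 and CYP1B1 lower, against a background of 40.6% of genes (19.0% higher and 21.6% lower). In A549 knockout 2 members were called, AHR and CYP1B1, both higher, against 20.8% (10.9% higher). In H2023 wild type AHRR was called lower, against 21.4% (17.4% lower), and in H2023 knockout AHR was called higher, against 26.9% (7.68% higher). Centring each library on its median moved all H2023 culture differences up, by 0.25 in wild type and 0.15 in knockout, and the share of called genes that were higher went from 18.5% to 53.6% and from 28.6% to 48.0%. No member's call changed there under centring. The larger mitochondrial share of oncosphere libraries moves with all 4 comparisons, and its part in them was not tested. The marker lists moved as well. In A549 wild type 3 of 5 epithelial markers were called higher, while their sum went from 7417 to 7626 TPM down to 5230 to 6570 TPM, and CD68 rose by 1.79. In A549 knockout 4 of 5 were called higher, with a median log2 fold change of 1.68 and sums of 1450 to 2523 TPM in normal culture and 4995 to 7195 TPM in oncospheres. In H2023 2 of 5 were called lower in wild type, and 1 higher and 2 lower in knockout. The part of these markers in the members' culture differences was not tested.

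AHR was higher in oncospheres of both A549 genotypes without overlap. In wild type it went from 17.8 and 28.7 to 33.2 and 37.5 TPM, and in knockout from 12.6 and 12.7 to 43.2 and 38.8 TPM. It thus rose by 0.62 (SE 0.20, limma adjusted p = 0.0396) in wild type and by 1.62 (adjusted p = 0.00145), or 3.25-fold in mean TPM, in knockout. The wild-type call was lost without any 1 of 7 of the 8 libraries, all but wild-type normal replicate 2, with 0.29 (adjusted p = 0.189) without wild-type normal replicate 1; the knockout call held in all 8 such fits. In H2023 knockout AHR rose by 0.84 (limma adjusted p = 0.0208), from 82.8 and 68.5 to 134 and 138 TPM, and the call was lost without any 1 of those 4 libraries (adjusted p = 0.0604 to 0.114). In H2023 wild type 1 oncosphere library, at 139.9 TPM, stood above normal culture and the other, at 93.7 TPM, just below it (0.26, adjusted p = 0.364).

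CYP1B1 moved in opposite directions in the A549 genotypes. In wild type it fell by 0.96 on the log2 scale, with a limma adjusted p of 0.00623, from 101 and 70.0 to 40.4 and 45.8 TPM, and the call held in all 8 leave-one-out fits. In knockout it rose by 0.71 (limma adjusted p = 0.0383), from 49.4 and 68.0 to 94.2 and 97.1 TPM. The knockout call was lost without normal replicate 1 (0.49, adjusted p = 0.207), without either knockout oncosphere library (0.128 without replicate 1 and 0.135 without replicate 2) and without either wild-type oncosphere library (0.0535 and 0.0537). This is the same contrast of 8 libraries as the culture difference of the knockout effect above, read along its other side. H2023 gave no call, with -0.55 in wild type (limma adjusted p = 0.119) and 0.11 in knockout (0.761).

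AHRR was lower in oncospheres of A549 and of H2023 wild type. A549 wild type went from 1.89 and 0.61 to 0.28 and 0.07 TPM, a fall of 0.88 with a limma adjusted p of 0.0474. That call did not hold without 5 of the 8 libraries: wild-type normal replicate 1 (-0.46, adjusted p = 0.263), either wild-type oncosphere library (0.0917 and 0.181) or either knockout oncosphere library (0.0628 and 0.0622). A549 knockout missed the threshold (-0.99, limma adjusted p = 0.0514). H2023 wild type went from 3.34 and 2.92 to 0.28 and 0.40 TPM, and fell by 1.62 (limma adjusted p = 0.0268), a call lost without any 1 of those 4 libraries (adjusted p = 0.0890 to 0.114). In H2023 knockout, where oncospheres kept 2.51 and 2.10 TPM, the value was -0.35 (adjusted p = 0.530), which became -0.97 (0.0389) without normal replicate 2 and 0.26 (0.419) without normal replicate 1.

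CYP1A1 fell in A549 wild-type oncospheres, from 0.60 and 0.57 to 0.13 and 0 TPM (-0.58, limma adjusted p = 0.00575), a call kept in all 8 leave-one-out fits. The mean normalized count of CYP1A1 in A549 oncospheres, over both genotypes, was 1.53. CYP1A1 values in H2023 leaned the other way without a call, at 0.32 in wild type (limma adjusted p = 0.330) and 0.40 in knockout (0.219). ARNT was not called in any line or genotype, with limma values from -0.42 to 0.10. TIPARP was not called either, and its value of -0.69 in A549 wild type (adjusted p = 0.123) became -1.19 (adjusted p = 0.0155) without normal replicate 2 and -0.20 (0.634) without normal replicate 1.

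**Figure D3:**
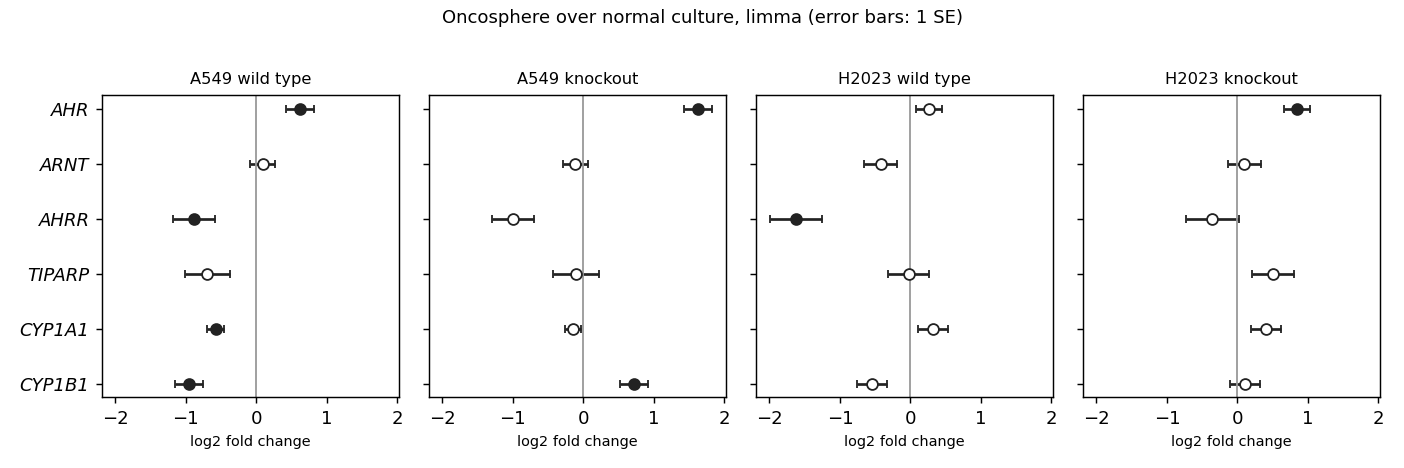
Log2 fold change of oncosphere over normal culture from limma (x axis, error bars 1 SE) for each member (y axis), by line and genotype. Filled circles have an adjusted p under 0.05; CYP1B1 is filled at -0.96 in A549 wild type and at 0.71 in A549 knockout, and AHR is right of 0 in every panel.

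The third question was how wild-type cells of both lines compared, with limma over the 8 wild-type libraries. In normal culture AHR, AHRR and ARNT were called higher in H2023, 3 of 6 members against 35.4% of genes (22.8% higher). In oncospheres AHR, CYP1A1 and CYP1B1 were called higher, 3 of 6 against 42.3% (20.3% higher). No member was called lower in H2023. Centring on library medians moved all normal-culture differences by -0.22 and took the share of called genes higher in H2023 from 64.3% to 41.1%, and of the members AHR alone stayed called there. Of the 5 epithelial markers limma called 2 higher and 1 lower in H2023 in normal culture and 2 higher and 3 lower in oncospheres, where CD68 was called lower (-1.45); their part in the line differences was not tested.

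AHR had the largest line difference of the members on the log2(TPM + 1) scale. Its 8 H2023 libraries, at 68.5 to 139.9 TPM, lay above its 8 A549 libraries, at 12.6 to 43.2 TPM. The wild-type difference was 2.03 (SE 0.25, limma adjusted p = 0.00102) in normal culture and 1.67 (adjusted p = 0.00166) in oncospheres, or 4.10-fold and 3.30-fold in mean TPM, and both calls held in all 8 leave-one-out fits. Ordered by group mean, AHR ran from H2023 knockout oncospheres (136 TPM) through H2023 wild-type oncospheres (117), H2023 normal wild type (95.2) and knockout (75.6), to A549 knockout oncospheres (41.0), wild-type oncospheres (35.4), normal wild type (23.2) and normal knockout (12.6). The first 3 groups overlapped their neighbours and the others did not.

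The other line differences were smaller on that scale, which compresses low values. In normal culture AHRR differed by 0.94 (limma adjusted p = 0.0296), a call lost without A549 replicate 2 (0.51, adjusted p = 0.120) or either H2023 replicate (0.115 and 0.0786), and when centred (0.0652). ARNT differed by 0.66 (adjusted p = 0.0378), a call lost without A549 normal replicate 1 (0.42, adjusted p = 0.200), either H2023 normal replicate (0.0714 and 0.177) or either A549 oncosphere replicate (0.0602 and 0.0604), and when centred (0.141). In oncospheres CYP1A1 differed by 1.12 (adjusted p = 0.00468), from 0.13 and 0 TPM in A549 to 1.10 and 1.54 TPM in H2023, in all 8 leave-one-out fits. In mean TPM that is 20.3-fold, and with a pseudocount of 0.1 the difference was 3.21, both above those of AHR. The mean normalized count of CYP1A1 in A549 oncospheres was only 1.53, so this ratio divides by a value near the floor. CYP1B1 differed by 0.77 (adjusted p = 0.0199), a call lost without either A549 oncosphere replicate (0.107 and 0.0559) or H2023 oncosphere replicate 1 (0.0912).

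Across the 16 libraries the members did not run in parallel. Pearson's r between log2(TPM + 1) of any pair of the 5 members with a mean of at least 1 TPM was between -0.24 and 0.38, a description over libraries that share lines, clones and cultures. Among 14823 genes with that mean, those most like AHR were FRK (r = 0.984), CYP4F11 (0.972) and SURF1 (0.962). FRK encodes a tyrosine kinase and CYP4F11 a fatty-acid hydroxylase. Those most like AHRR were ZBTB44 (0.932), ZNF445 (0.930) and SMG1 (0.927), and those most like ARNT were HDLBP (0.844), CBLB (0.819) and RHOBTB3 (0.819). CYP1B1 was most like PEX19 (0.823), AKAP8 (0.782) and HSD17B1-AS1 (0.774), and TIPARP most like SCO2 (0.803), P2RY6 (0.760) and PDF (0.736).

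Genes around the loop were counted in 6 lists for knockout against wild type. Their calls in A549 rest on all 4 libraries of a comparison: without any 1 of them limma called 0 of all genes in normal culture and 0 to 38 in oncospheres. Among all genes limma called 4.54% higher and 6.28% lower in A549 normal culture, and 6.04% higher and 7.2% lower in A549 oncospheres. The authors' deposited tables list 11.2% higher and 10.9% lower, then 9.29% higher and 11.4% lower. Of the cytosolic receptor complex (5 of 5 measured), limma called SRC lower in A549 normal culture and none in A549 oncospheres. The authors' deposited tables list 0 higher and 1 lower, then 1 higher and 2 lower. Their 1 lower gene in normal culture was HSP90AB1 (-0.42, adjusted p = 0.0101), which limma did not call (adjusted p = 0.101). SRC was not listed there (-0.29, adjusted p = 0.0795) but was listed lower in oncospheres (-0.49, adjusted p = 0.0445). HSP90AA1, the chaperone that holds the receptor, was at 321.8 and 482 TPM in wild-type and 675 and 798 TPM in knockout A549 oncospheres (log2 fold change 0.90, limma adjusted p = 0.0546). Of the other bHLH-PAS factors (12 of 15 measured), limma called 1 higher in A549 normal culture, and 3 higher and 1 lower in A549 oncospheres. The authors' deposited tables list 5 higher and 1 lower, then 6 higher and 2 lower. HIF1A, which competes with AHR for ARNT, rose in A549 oncospheres from 244 and 225 to 499 and 516 TPM (1.11, limma adjusted p = 0.00511). CYP1B1 and ARNT were higher in the same libraries, but a tie of either gene to HIF1A was not tested in any comparison. The authors' deposited tables also list HIF1A higher in A549 normal culture (0.56, adjusted p = 5.07e-04), where ARNT was higher but CYP1B1 lower. They list it higher in H2023 oncospheres (0.84, adjusted p = 0.0058), where the genotypes overlapped for CYP1B1 and ARNT. PER2 is listed lower in both A549 cultures (-0.71 and -0.64, authors' adjusted p = 0.0130 and 0.0120). It is also listed lower in H2023 normal culture (-0.91, adjusted p = 2.35e-05). ARNT2 is not listed in A549 (-0.10 and 0.37, authors' adjusted p = 0.754 and 0.195). Limma called neither PER2 nor ARNT2 in A549.

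Of the coactivators, corepressors and turnover factors (14 of 14), limma called 2 higher and 1 lower in A549 normal culture and 1 higher in A549 oncospheres, and the authors' deposited tables list 2 in each direction, then 1 in each. CUL4B, the scaffold of a ubiquitin ligase that contains AHR, rose in both, from 31.1 and 31.6 to 69.1 and 59.1 TPM and from 26.4 and 29.9 to 66.3 and 62.8 TPM (1.00 and 1.17, limma adjusted p = 0.0133 and 0.00581). NCOA7 and NRIP1 were not called by limma in A549. The authors' deposited tables give NCOA7 -0.49 and 0.28 there (adjusted p = 0.0881 and 0.389). They give NRIP1 -0.35 and 0.38 (adjusted p = 0.0359 and 0.0746), but list it higher in both H2023 cultures (0.61 and 0.59, adjusted p = 0.00109 and 0.0226). Of the other drug-metabolism targets of AHR (9 of 10), limma called 1 higher and 1 lower in A549 normal culture and 1 higher and 3 lower in A549 oncospheres. The authors' deposited tables list 2 higher and 1 lower of 7 tested, then 2 higher and 3 lower of 9. UGT1A6, a glucuronidation enzyme that shares exons with its UGT1A neighbours and is uncertain for that reason, rose in both (1.85 and 1.81, limma adjusted p = 0.0154 and 0.0114). In A549 oncospheres CYP2S1 fell by 1.71 and GSTA1 fell by 1.82 (limma adjusted p = 0.00925 and 0.0224). The list thus held calls in both directions, with medians of -0.08 and -0.03 against -0.03 and 0.03 over all genes.

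Of other genes reported to respond to AHR (17 of 18), limma called 1 higher and 4 lower in A549 normal culture and 2 higher and 3 lower in A549 oncospheres. The authors' deposited tables list 1 higher and 7 lower of 15 tested, then 3 higher and 7 lower of 17. PTGS2, which encodes the inducible cyclooxygenase, fell by 3.24 and then by 1.53 (limma adjusted p = 0.00518 and 0.00779), and AREG, which encodes an EGF receptor ligand, fell by 3.34 and 1.84 (0.00614 and 0.0340). LPCAT2, a lysophospholipid acyltransferase, rose by 2.14 and 2.45 (0.00575 and 0.00542). Of the genes of tryptophan uptake and kynurenine metabolism (13 of 15), not all of which make AHR ligands, limma called QPRT lower in A549 normal culture. In A549 oncospheres it called 2 higher and 1 lower (SLC7A5, a tryptophan transporter, -1.01, adjusted p = 0.0131). SLC7A5 and IDO1 are also in the list of genes reported to respond to AHR, so the SLC7A5 call is counted in both lists. The authors' deposited tables list 1 in each direction of 12 tested, then 1 higher and 3 lower of 13. The medians of these lists were -0.27 and -0.17, and 0.00 and -0.30.

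In H2023 limma called 0 genes of any list in either culture, as of all genes. At an unadjusted p under 0.05 the drug-metabolism list had 6 of 9 lower and 0 higher in normal culture and 3 lower and 0 higher in oncospheres, and its medians were -0.49 and -0.44 against 0.01 and 0.06 over all genes. Of all genes 18.2% and 15.5% passed that level in either direction, and the share lower at that level was not counted. The list holds UGT1A1 as well as UGT1A6, which share exons, so its genes are not all separate measurements. The authors' deposited tables list 3 of 7 tested and 2 of 9 tested as lower, against 6.97% and 2.85% of genes, and none as higher. UGT1A6, called higher in A549, was at 8.46 and 10.47 TPM in wild-type and 2.20 and 4.52 TPM in knockout H2023 oncospheres (authors' deposited table -1.51, adjusted p = 0.0180). GSTA1, a glutathione transferase, went from 17.1 and 12.9 to 3.95 and 3.92 TPM there (-2.10, adjusted p = 1.08e-06 in the authors' deposited table). The remaining lists had at most 2 genes per direction at that unadjusted level in H2023. The authors' deposited tables also list at most 2 per direction for each, where 3.84% and 2.22% of genes were higher. In normal culture these include NCOA7 (-1.14, adjusted p = 5.49e-16) and PTGS2 (-2.49, 3.00e-16), both lower, and AREG, higher (0.70, 0.00584). In oncospheres they include SLC7A5, lower (-1.32, adjusted p = 4.83e-08), and ARNT2, higher (1.82, 2.47e-04). IL4I1, an enzyme that makes AHR ligands from tryptophan, was at 0.87 and 0.99 TPM in wild-type and 2.61 and 14.6 TPM in knockout H2023 oncospheres, so its mean rests on knockout replicate 2.

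**Figure D4:**
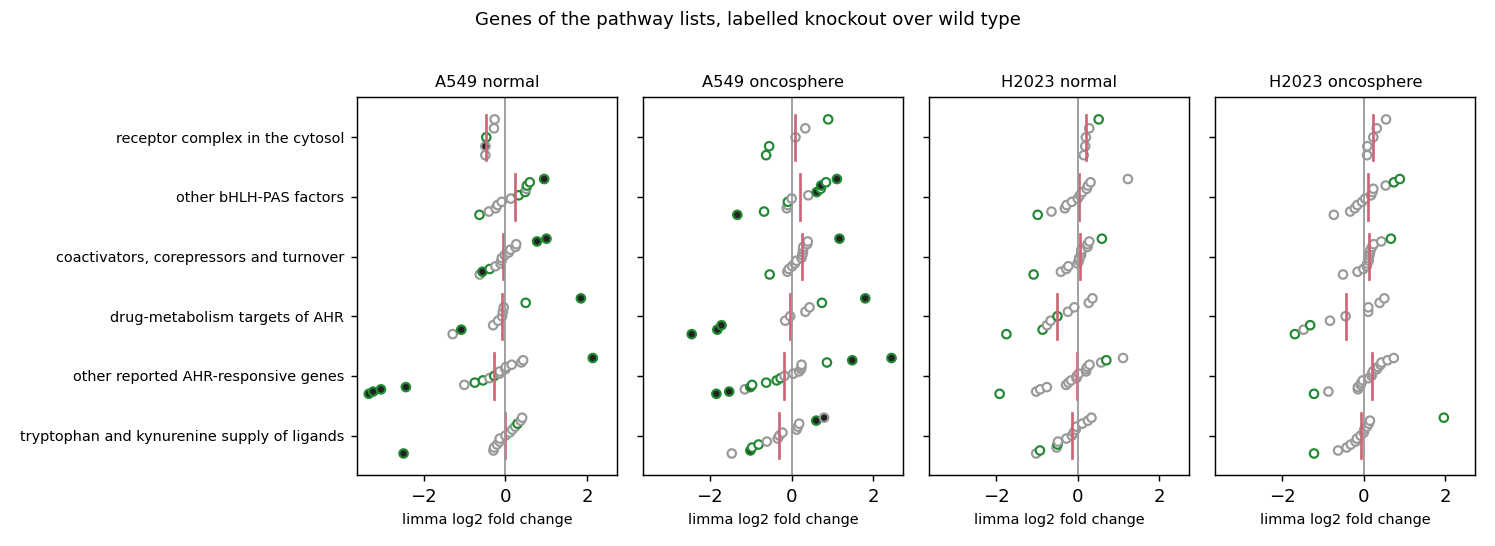
Limma log2 fold change between knockout and wild type (x axis) for each measured gene of the 6 lists (y axis, 1 band per list) in the 4 comparisons. Filled points have a limma adjusted p under 0.05, green outlines an adjusted p under 0.05 in the authors' deposited tables, and red bars are list medians; filled points are present in the A549 panels only, and the drug-metabolism medians are left of 0 in H2023 at -0.49 and -0.44.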

How the data were processed

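Members and gene lists were chosen with earlier results of these data known. Alignment used GRCh38, with HISAT2 and StringTie also named, per the submitters' processing notes; versions, annotation and counting are not given in the sources used here. Per the labels' protocols, 1 µg of RNA from a ReliaPrep purification went into each stranded TruSeq library of mRNA. The authors deposited TPM per library in 4 tables, 1 per line and culture. Per the file headers, which use DESeq2's names, the remaining columns made by the authors are a mean normalized count (a signal over 4 libraries), a log2 fold change, its standard error and statistic (each a score) and p-values. Directions came from the fold change, since the deposited statistic carries the reverse sign in all 18361 rows per table. The first row of repeated identifiers was used, leaving 18227 genes. DESeq2 was not run here, because the values per library are not counts.

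The test was limma 3.58.1 (R 4.3.3) with a trend on log2(TPM + 1), two-sided, Benjamini-Hochberg adjusted, with a threshold of 0.05. Knockout fits used 4 libraries, culture and line fits 8. The limma test was also run on simulated data with independent libraries and changes planted only in well-expressed genes. That run does not cover genes as low as AHRR and CYP1A1. Differences of knockout effects used the authors' deposited fold changes and standard errors with a normal reference, over genes with an adjusted p in both tables. Alternatives were a pseudocount of 0.1, a mean of at least 1 TPM, the replicate block, a fit over 16 libraries, centring, leaving out each library, the authors' table, and for differences the limma interaction or a mean normalized count of at least 100. Centring of culture and line fits was chosen after seeing the data. Named beside the members were the 3 genes per list with the largest mean absolute log2 fold change over the 4 knockout comparisons, and the 3 genes with the highest r to each member. Where a fit leaves a group with 1 library, that library is assumed to vary like the other groups. Coordinates are from GENCODE v29.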

Additional observations from a re-analysis of the deposited data

Results flagged for a closer look

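The groups of 2 libraries are too small to look for a single library far from the others, so the results here are differences of the knockout effect between cultures or lines that passed a test of the difference itself, from the authors' deposited fold changes and standard errors. The CYP1B1 effect in A549 was larger in oncospheres than in normal culture by 1.46 on the log2 scale (adjusted p = 3.01e-07), with both knockout libraries above wild type in oncospheres and both below it in normal culture. The ARNT effect in normal culture was 0.69 in A549 and -0.59 in H2023, opposite in sign, a difference of -1.28 (adjusted p = 1.63e-06). In oncospheres it was 0.67 in A549 and -0.33 in H2023, a difference of -1.0 (adjusted p = 0.00147), where the limma interaction of -0.57 did not pass (adjusted p = 0.181). The CYP1B1 effect in oncospheres was 1.00 in A549 and 0.044 in H2023, a difference of -0.95 (adjusted p = 0.00726).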

How the results depend on the processing

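Of 735 values of the members under alternatives, 632 kept their direction and their side of the threshold, 49 lost a call, 18 gained one and 36 changed sign; the cause was not tested. The calls of the report held apart from those named here and beside each result. Genes called between knockout and wild type numbered 3639 (A549 normal culture), 3628 (A549 oncospheres), 1665 (H2023 normal culture) and 816 (H2023 oncospheres) in the authors' deposited tables, and 3233, 3780, 546 and 1014 in the fit over 16 libraries. In H2023 they numbered 322 and 1 when centred, and 481 and 6 with a mean of at least 1 TPM. Leave-one-out fits, which have fewer libraries, called 0 genes in A549 normal culture, 0 to 38 in A549 oncospheres, and for culture 4924 to 7113 (A549 wild type), 2010 to 3755 (A549 knockout), 1697 to 3439 (H2023 wild type) and 2090 to 4973 (H2023 knockout), and for lines in normal culture 3946 to 6628. Members called in A549 normal culture numbered 2 in the authors' deposited table, 2 over 16 libraries and 2 at a mean of at least 1 TPM. The authors' deposited tables call 2 in A549 oncospheres and 3 in H2023 normal culture. With the filter, 2 were called for culture in A549 wild type, since AHRR and CYP1A1 are not tested there; centring left 1 for lines in normal culture. The limma interaction called 0 genes between H2023 cultures. Leaving out 1 library called 0 members in A549 oncospheres, and for culture 2 to 5 (A549 wild type), 1 to 3 (A549 knockout), 0 to 1 (H2023 wild type) and 0 to 1 (H2023 knockout), and for lines in normal culture 1 to 3.

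Same-numbered libraries of 2 genotypes form only 2 pairs per comparison, whose deviations correlated at 0.077, 0.124, 0.037 and 0.476, so the numbers were not taken as a pairing. The replicate block called 1 member in A549 normal culture (ARNT, adjusted p = 0.039) and 1 for culture in A549 knockout (CYP1B1 lost, 0.05005), and AHRR lost its culture call in A549 wild type (0.0611); it moved no count of genes by over 1.5 times. That AHRR call was also lost when centred (0.0526) and over 16 libraries (0.068), and the AHRR line call in normal culture over 16 libraries (0.0546) and at a pseudocount of 0.1 (0.0944). AHRR in A549 knockout gained a culture call when centred (0.0477) and at a pseudocount of 0.1 (0.0408).

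The sign turned in the authors' deposited tables in A549 oncospheres for AHR (-0.048), AHRR (-1.48) and TIPARP (-0.023), for CUL4B in H2023 normal culture (0.033), and in H2023 oncospheres for HSP90AA1 (-0.0091) and AREG (-0.042). It turned when centred for CUL4B in H2023 normal culture (0.0069), for TIPARP (-0.038) and HSP90AA1 (-0.0056) in H2023 oncospheres and for TIPARP between H2023 wild-type cultures (0.22). It turned at a pseudocount of 0.1 for AHRR in H2023 normal culture (-0.0059), and in the limma interaction between lines for CYP1A1 in normal culture (-0.0905) and TIPARP in oncospheres (-0.0246). Leaving out 1 library gave ranges across 0. For knockout in A549 normal culture these were AHRR -0.30 to 0.54 and GSTA1 -0.16 to 0. In A549 oncospheres they were AHRR -0.14 to 0.16, CYP1A1 -0.13 to 0.042, TIPARP -0.055 to 0.20 and IL4I1 -0.22 to 0.47. In H2023 normal culture they were AHRR -0.58 to 0.64, CUL4B -0.13 to 0.13 and IL4I1 -0.22 to 0.44. In H2023 oncospheres they were AHR -0.0395 to 0.53, ARNT -0.27 to 0.0898, CYP1B1 -0.15 to 0.37, TIPARP -0.35 to 0.45, HSP90AA1 -0.063 to 0.23 and AREG -0.49 to 0.88. For culture they were ARNT -0.15 to 0.33 (A549 wild type), ARNT -0.27 to 0.039 and TIPARP -0.37 to 0.16 (A549 knockout), AHR -0.0225 to 0.55 and TIPARP -0.24 to 0.18 (H2023 wild type), and AHRR -0.97 to 0.26, ARNT -0.18 to 0.37 and CYP1B1 -0.15 to 0.36 (H2023 knockout). For lines they were CYP1A1 -0.0699 to 0.51 and TIPARP -0.75 to 0.25 (normal culture), and ARNT -0.0296 to 0.33 (oncospheres). The depth of each single library is unknown, which limits AHRR and CYP1A1 most.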
